A study of Mus musculus with 4 samples.

Results

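The 9 genes that encode protein arginine methyltransferases (PRMTs) in mouse, Carm1, Prmt1, Prmt2, Prmt3, Prmt5, Prmt6, Prmt7, Prmt8 and Prmt9, were examined among 21938 protein-coding genes for binding of methylated Pontin. They were chosen by name, whether or not they had a peak, and include the gene of CARM1, the enzyme whose methylation of Pontin the study addresses. Binding was read from a list of 4311 peaks, called in the ChIP of methylated Pontin from glucose-starved mouse embryonic fibroblasts (MEFs). Along with this ChIP, the experiment comprised the ChIP from MEFs in normal media and an input of each condition, 4 libraries in all with 1 per condition and antibody. The antibody was raised against Pontin, a AAA+ ATPase of chromatin-remodeling complexes, methylated at a pair of its arginines. The labels give the cells as MEFs with no genotype, transgene or duration of starvation. The list reports no expression values, so the fibroblast label was not checked against marker genes. The ChIP in normal media was not analysed here, and no library was replicated. Neither a change upon starvation nor an error between cultures can therefore be stated for these genes. In the starved library 20765512 tags were counted, and 0.65% of them lay in peaks.

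PRMTs transfer methyl groups from S-adenosylmethionine to arginine residues of histones, coactivators, splicing factors and other proteins. Type I enzymes, to which CARM1, PRMT1, PRMT2, PRMT3, PRMT6 and PRMT8 belong, make asymmetric dimethylarginine. PRMT5 and PRMT9 are type II and make symmetric dimethylarginine, whereas PRMT7 is type III and stops at monomethylarginine. PRMT1 makes most of the asymmetric dimethylarginine of mammalian cells, PRMT5 most of the symmetric form, and CARM1 was first described as a coactivator that methylates histone H3.

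Methylated Pontin had a peak with its centre within 2.5 kb of a transcription start site (TSS) of 5 of the 9 genes, namely Carm1, Prmt1, Prmt2, Prmt6 and Prmt9. No peak of the list lay within 2.5 kb of a TSS of Prmt3, Prmt5, Prmt7 or Prmt8. By type, 4 of 6 type I genes and 1 of 2 type II genes had such a peak, and the only type III gene had none. The share of 55.6% has an exact 95% binomial interval of 21.2% to 86.3%. Of all protein-coding genes, 17.1% had such a peak, which lies below that interval. The interval treats genes of 1 library as independent draws, whereas the 9 genes are the whole family. It shows how coarse a count of 9 is and is not a test. With stricter peaks the shares were lower on both sides. At 8-fold over input or more, 2 of 9 PRMT genes had such a peak (22.2%, interval 2.81% to 60%) against 9.93% of genes. These were Carm1 and Prmt6, and the fold of Prmt6 stands over an input under 1 tag at the depth of the ChIP. With peaks at or above the median score, 3 of 9 had one (33.3%, 7.49% to 70.1%) against 10% of genes. Both shares over all genes lay inside these intervals, which are too wide to tell whether the difference changed. The background depended on the promoter. All 9 PRMT genes start in CpG-rich DNA, defined as a GC content of at least 50% and a ratio of observed to expected CpG of at least 0.6 within 500 bp of the start. Of the 9742 protein-coding genes with such a start, 29.2% had a peak, which is inside the interval of the PRMT genes, and of the other 12196 genes 7.4% had one. The number of annotated TSSs also moved with the share, which was 6.19% for genes with 1 TSS, 14.4% for genes with 2 to 4 and 27.1% for genes with 5 or more. Carm1, Prmt1, Prmt2 and Prmt9 have 9, 12, 9 and 5 TSSs and Prmt6 has 2, while Prmt3, Prmt5 and Prmt7 have 7 each and Prmt8 has 1. The part of promoter type and TSS number in the count of PRMT genes was not tested. A peak centre inside the gene body was found for Carm1 alone, 1 of 9, against 11.3% of protein-coding genes.

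**Figure D1:**
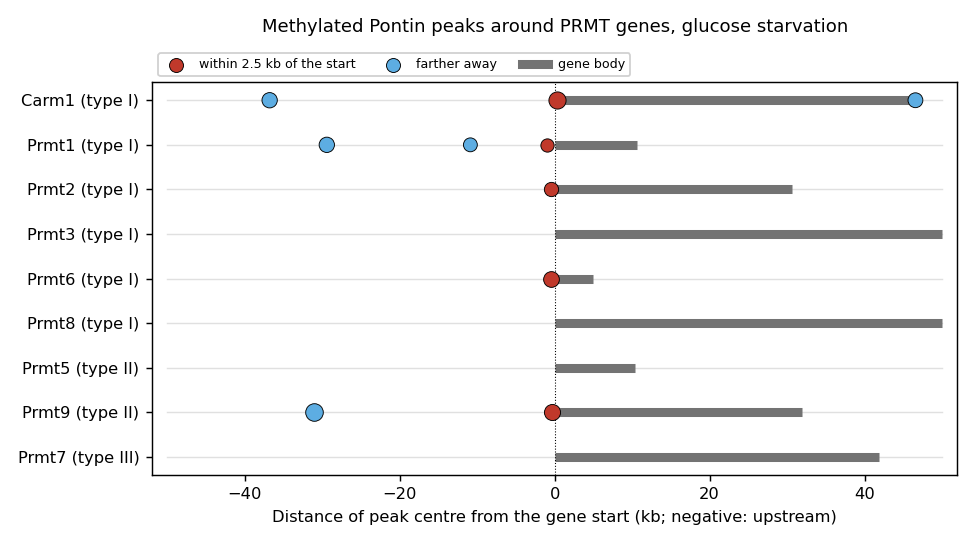
Methylated Pontin peaks within 50 kb of the start of each PRMT gene, with distance from the gene start in kb on the x axis, 1 gene per line, gene bodies as grey bars cut at 50 kb, and circle area in proportion to tags per 10000000. Red circles are peaks within 2.5 kb of the start and blue circles are peaks farther away. 5 genes have a red circle, and Prmt3, Prmt5, Prmt7 and Prmt8 have no peak within 50 kb of the gene start.

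To show what DNA lay under these peaks, part of each promoter peak is printed from the plus strand of GRCm38 (mm10), 5′ to 3′, with CpG dinucleotides in capitals. The stretch from Carm1 is chr9:21547231-21547389, which is 159 bases of the first intron and begins just after the first exon. For the other genes the central 240 bases of the peak are given, at chr7:44987415-44987654 (Prmt1), chr10:76238218-76238457 (Prmt2), chr3:110251350-110251589 (Prmt6) and chr8:77548931-77549170 (Prmt9).
Carm1: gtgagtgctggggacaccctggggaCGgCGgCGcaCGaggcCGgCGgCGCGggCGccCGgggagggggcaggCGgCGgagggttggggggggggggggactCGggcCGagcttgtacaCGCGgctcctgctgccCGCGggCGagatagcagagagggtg
Prmt1: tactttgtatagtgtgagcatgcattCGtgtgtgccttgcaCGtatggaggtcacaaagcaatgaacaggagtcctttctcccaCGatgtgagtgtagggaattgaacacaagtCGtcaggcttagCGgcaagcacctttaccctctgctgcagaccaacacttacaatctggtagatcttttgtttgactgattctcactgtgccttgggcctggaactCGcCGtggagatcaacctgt
Prmt2: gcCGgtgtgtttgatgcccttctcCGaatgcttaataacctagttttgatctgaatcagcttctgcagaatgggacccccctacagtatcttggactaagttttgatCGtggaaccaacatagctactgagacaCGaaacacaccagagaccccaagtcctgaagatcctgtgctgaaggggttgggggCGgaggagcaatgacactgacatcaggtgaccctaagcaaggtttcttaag
Prmt6: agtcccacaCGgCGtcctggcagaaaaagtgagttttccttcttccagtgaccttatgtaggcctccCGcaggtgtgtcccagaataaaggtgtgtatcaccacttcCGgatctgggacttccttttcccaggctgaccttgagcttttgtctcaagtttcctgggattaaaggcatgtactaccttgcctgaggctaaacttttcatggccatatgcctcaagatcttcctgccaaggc
Prmt9: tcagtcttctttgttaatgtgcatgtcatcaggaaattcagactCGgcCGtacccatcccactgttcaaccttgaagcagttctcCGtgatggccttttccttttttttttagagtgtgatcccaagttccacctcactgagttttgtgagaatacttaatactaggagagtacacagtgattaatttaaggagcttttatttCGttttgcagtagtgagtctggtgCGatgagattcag
The stretch from Carm1 holds 19 CpGs in 159 bases, against 7 in Prmt1, 5 in Prmt2, 4 in Prmt6 and 5 in Prmt9 in 240 bases each.

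The Carm1 peak sat on the first exon. CARM1 (PRMT4) is the coactivator-associated methyltransferase, and its gene occupies chr9:21546894-21592623 on the plus strand. The peak, chr9:21546909-21547389, has its centre 255 bp downstream of the gene start, in coding sequence of the first exon. It lies 9 bp upstream of the TSS of another Carm1 transcript, but that transcript is not annotated as coding. From the nearest TSS of a protein-coding transcript the centre was 0.226 kb away. The whole 481 bp peak lies inside the gene, with 223 bp of it coding. Its signal was 18.1 tags per 10000000, or 37.6 tags in the library with an exact 95% Poisson interval of 26.5 to 51.7. This signal exceeded 79.0% of all peaks, a rank that ran from 32.7% to 97.5% at the bounds of the interval. The peak had 11.68-fold more tags than input and 4.57-fold more than the surrounding 10 kb. Its score was 28, above the median of 26 over all peaks.

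Prmt1, the gene of the main type I enzyme, had the promoter peak with the fewest tags, although the Poisson intervals of all 5 overlapped. It lies at chr7:44987295-44987775, with its centre 967 bp upstream of the start of Prmt1, whose gene body is chr7:44975989-44986568 on the minus strand. The signal was 10.8 tags per 10000000, or 22.4 tags with an interval of 14.1 to 33.8, and was higher than that of 12.4% of peaks. Its score of 18 was the lowest in the list, shared by 139 peaks, so this peak stood at the authors' tag threshold of 18. It was 7.01-fold over input and 5.46-fold over the surrounding 10 kb. Its centre falls in an intron of Gm15545, an antisense gene on the other strand with a TSS 562 bp away, which is nearer than that of Prmt1.

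Prmt2, which encodes a type I enzyme with an SH3 domain that also acts as a coactivator of nuclear receptors, had a peak at chr10:76238098-76238578. Its centre lay between genes, 473 bp upstream of the gene start at the high end of chr10:76207222-76237865 (minus strand). The signal was 12.5 tags per 10000000, or 26.0 tags with an interval of 16.9 to 38.0, and exceeded 29.5% of peaks. The fold over input of 4.63 was higher than that of 8.12% of peaks and close to the limit of 4-fold required for the list.

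Prmt6, a short gene whose enzyme methylates histone H3, had a peak over DNA that was nearly empty in the input. The gene is chr3:110246109-110250998 on the minus strand, and the peak, chr3:110251230-110251710, is centred 472 bp upstream of its start. The deposited fold over input was 39.25, and the tags of the peak divided by this fold give 0.80 input tags at the depth of the ChIP. Such a value under 1 tag was found for 489 peaks, 11.3% of the list, so the fold of this peak reflects its ChIP tags over an input at its floor and is not a precise ratio. Over the surrounding 10 kb the peak was 4.80-fold higher. Its signal was 15.2 tags per 10000000, or 31.6 tags with an interval of 21.5 to 44.7, and this was higher than that of 56.9% of peaks. All 481 bp lie in an exon of C130013H08Rik, an antisense gene whose TSS is 1455 bp from the peak centre. Repeats soft-masked in the reference made up 75.1% of the peak, more than in 98.9% of peaks, against a median of 8.73%. The part of these repeats in the input count was not tested.

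Prmt9, the second type II gene, whose enzyme methylates the splicing factor SF3B2, had a peak at chr8:77548811-77549291. The centre lay between genes, 346 bp upstream of the start of the gene at chr8:77549397-77581338 on the plus strand. The signal was 15.9 tags per 10000000, or 33.0 tags with an interval of 22.7 to 46.4, and was higher than that of 62.9% of peaks. It was 5.14-fold over input, which was higher than 14.6% of peaks. Prmt9 and Prmt6 thus had the same score of 29.5 and similar tag counts. The input at Prmt9 came to 6.42 tags at the depth of the ChIP.

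The order of signal was Carm1, Prmt9, Prmt6, Prmt2 and Prmt1, but neighbours in this order could not be told apart. Of the 10 pairs among the 5 peaks, the Poisson intervals overlapped in 10. Each of the 5 intervals also held the median of all peaks, 29.5 tags. These intervals cover counting error in 1 library only. By deposited fold over input, 3 of the 5 peaks were below 8-fold. These folds rest on 0.80 to 6.42 input tags at the depth of the ChIP, which are not raw counts. The Poisson intervals do not cover the counting error of the input. The 5 peaks were therefore not ranked against each other by fold. The percentages of peaks with a lower fold, given for Prmt2 and Prmt9, carry the same error. For comparison, the 3382 peaks of the list within 2.5 kb of a TSS had a median signal of 14.7, with quartiles of 12.5 and 17.8, and a median fold over input of 9.03.

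**Figure D2:**
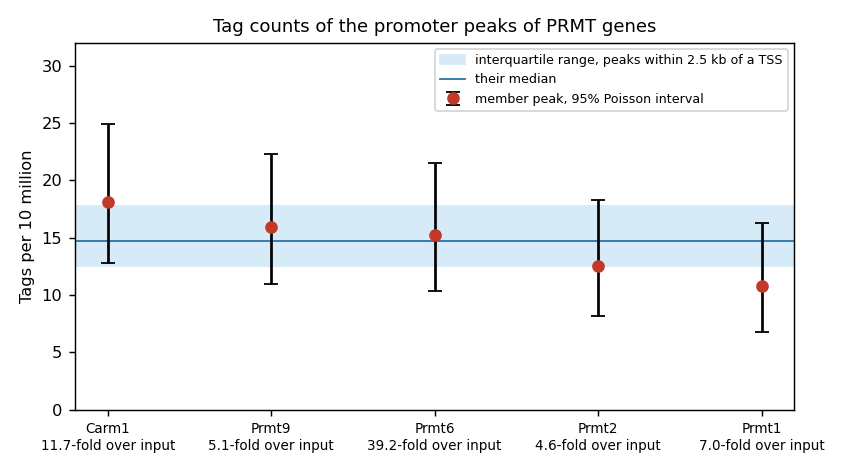
Signal of the 5 promoter peaks in tags per 10000000 (points) with exact 95% Poisson intervals (bars), and below each gene its deposited fold over input, which for Prmt6 stands over an input under 1 tag. The blue line and band are the median, 14.7, and interquartile range of the 3382 peaks within 2.5 kb of a TSS. Carm1 lies just above the band and Prmt1 below it, and every interval crosses the line.

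The centres of the 5 peaks lay on the upstream side of the nearest TSS in 5 of 5 genes, by 9 bp for Carm1 and by 346 bp to 967 bp for the others. Measured from the gene start, the Carm1 peak is downstream. Among the 3747 protein-coding genes bound at a TSS, 55.2% had the peak upstream of the nearest TSS, and the median distance was 268 bp against 472 bp for the PRMT genes. No peak had a TSS of another protein-coding gene within 2.5 kb of its centre. At Prmt1 and Prmt6 the peak cannot be assigned to 1 of the overlapping transcripts from its position, since antisense genes start within 2.5 kb as well.

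The DNA under the Carm1 peak differed in composition from that of the other PRMT peaks. Its GC content was 79.4%, higher than in 99.5% of all peaks, with 72 CpGs and a ratio of observed to expected CpG of 1.01. In contrast, the peaks of Prmt1, Prmt2, Prmt6 and Prmt9 had GC contents of 48.0%, 48.4%, 50.1% and 42.8%, all below the median of 53.0% over all peaks. Their ratios of observed to expected CpG were 0.51, 0.53, 0.33 and 0.45, with a median over all peaks of 0.55. These 4 peaks lay upstream of starts that are themselves CpG-rich, with GC contents of 55.0% to 60.1% within 500 bp of the gene start. The Carm1 peak lay across an annotated TSS, whereas the centres of the other 4 were 346 bp or more from one.

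**Figure D3:**
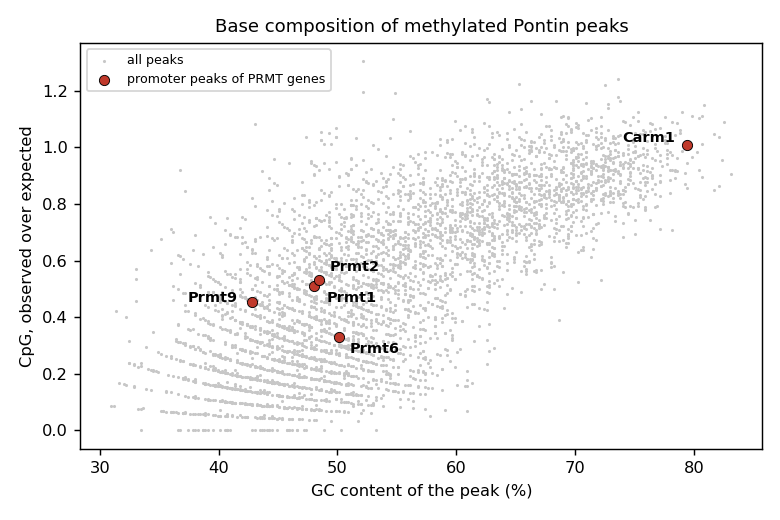
GC content in percent (x axis) and ratio of observed to expected CpG (y axis) of all 4311 peaks in grey and of the 5 promoter peaks of PRMT genes in red. Carm1 stands at 79.4% GC and a ratio of 1.01, and the other 4 peaks are grouped between 42.8% and 50.1% GC.

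Motifs of transcription factors linked to autophagy and the cell cycle were searched on both strands of the 5 promoter peaks. The motifs were GTAAACA for FOXO3a, GCGGGAA for E2F1, TCACGTG for TFEB and TGACGTC for CREB1. No match to any of the 4 was found in any of the 5 peaks, in the central 200 bp or in the whole 481 bp. Over all peaks, the whole sequence held GTAAACA in 5.08%, GCGGGAA in 9.26%, TCACGTG in 5.73% and TGACGTC in 3.71%, so most peaks of the list held none of these letters either. Of 3 common promoter elements added after the peaks had been seen, the GC box GGGCGG was present at Carm1 and Prmt2 (43.3% of all peaks), the letters CCAAT at Prmt1 and Prmt2 (40.4%) and the ETS core CCGGAA at Prmt6 (26.4%). A match describes letters and not a bound factor. Only these exact letters were searched, so the lack of a match does not show that a site is absent. In the study's own motif analysis of the methylated Pontin ChIP-seq, FOXO3a response elements had the highest significance.

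For the 4 PRMT genes without a promoter peak, the nearest peak lay between 48.7 kb and 2.98 Mb away. The median over protein-coding genes was 87.7 kb, and 39.4% of them had a peak within 50 kb. Prmt5, the main type II enzyme, had its nearest peak at chr14:54464490-54464970, 48.7 kb from a TSS, with 12.8 tags per 10000000 and an input under 1 tag. That peak was centred 12 bp from the TSS of Gm10366 and inside Lrp10, and 39.0% of genes had a nearer peak. Prmt7 had its nearest peak 60.8 kb upstream at chr8:106149937-106150417, which was centred 222 bp from the TSS of Pla2g15. With 20.9 tags per 10000000 this peak had more tags than each of the 5 promoter peaks, inside the counting interval of the Carm1 peak (12.8 to 24.9), and was 4.17-fold over input.

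Prmt8 and Prmt3 were far from any peak of the list. PRMT8 is a membrane-bound enzyme known mainly from neurons, and the nearest peak of its gene, chr6:127329769-127330249, was 439 kb downstream with 18.1 tags per 10000000. A nearer peak was found for 79.8% of genes. PRMT3 is a cytosolic enzyme that methylates the ribosomal protein RPS2, and its nearest peak, chr7:46796127-46796607 at Gtf2h1, was 2.98 Mb upstream, with 97.4% of genes closer to one. Prmt3 (chr7:49778346-49858265) lies between this peak and one at Cyfip1, chr7:55841692-55842172. The 9.05 Mb between them hold the starts of 43 protein-coding genes and no peak, and of the 4291 gaps between neighbouring peaks 99.7% were shorter. The start of Prmt3 is CpG-rich like those of the other PRMT genes, with a GC content of 63.6%. The starts of Prmt7 and Prmt8 had GC contents of 65.5% and 67.1%, and that of Prmt5 52.8%. At the starts of the 5 genes with a promoter peak, GC content ran from 55.0% to 76.7%. The part of GC content in which PRMT genes had a peak was not tested. Absence from the list means that no region passed the authors' limits, and regions below them were not analysed here.

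**Figure D4:**
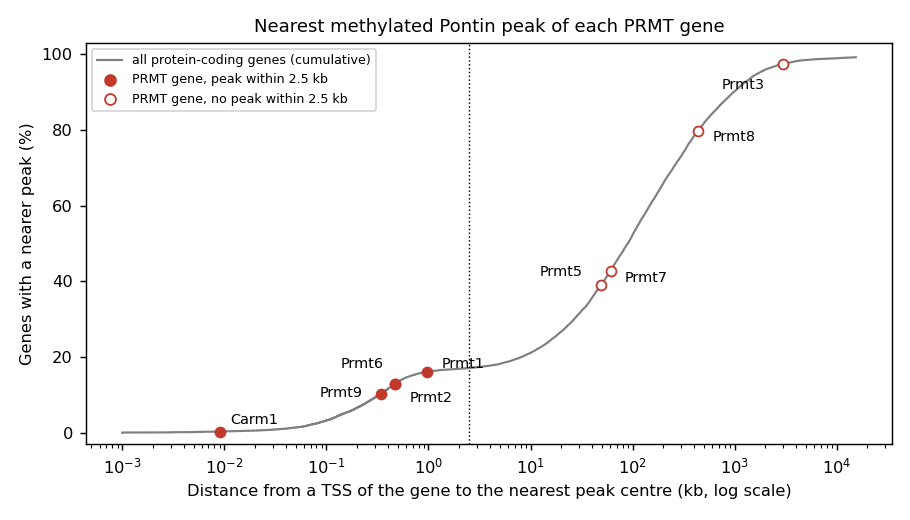
Distance from a TSS to the nearest peak centre in kb on a log scale (x axis) and percentage of protein-coding genes with a nearer peak (y axis), with all protein-coding genes as the grey cumulative curve and PRMT genes as circles, filled where the peak is within 2.5 kb (dotted line). The 5 filled circles are at 0.967 kb or less, and the open circles run from Prmt5 at 48.7 kb to Prmt3 at 2982 kb.

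The 5 genes with a promoter peak differed in how many other peaks lay within 50 kb of the gene start. The number of such peaks was not counted over all genes. Carm1 had 2 more, 36.8 kb upstream at Tmed1 (14.4 tags per 10000000) and 46.6 kb downstream near Yipf2 (13.5), just past the end of Carm1. Prmt1 had 2 more upstream, at Bcl2l12 (10.9 kb, 11.8 tags per 10000000) and at Scaf1 (29.4 kb, 14.4). Both had more tags than the peak of Prmt1 itself, but lay inside its counting interval of 6.80 to 16.3 tags per 10000000. Prmt9 had 1 more at 0610038B21Rik, 31.1 kb upstream with 19 tags per 10000000, and Prmt2 and Prmt6 had none. The peak of Prmt6 was the only one within 500 kb of its start.

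The wider arginine methylation pathway was described with 8 lists of 76 genes in all. A peak within 2.5 kb of a TSS was found for 25 genes, which is 32.9% (exact 95% interval 22.5% to 44.6%). The share over protein-coding genes was 17.1%. It was 29.2% for genes with a CpG-rich start and 27.1% for genes with 5 or more TSSs, both inside that interval. The listed genes had a median of 5 TSSs. The part of promoter type and TSS number in the share of the lists was not tested. The lists of substrates held most of them. Of 12 genes for substrates of CARM1, 7 had a peak, with the highest signals at Kmt2d, a histone H3 lysine 4 methyltransferase (28.9 tags per 10000000), Ep300, a histone acetyltransferase (27.0), and Pabpc1, a poly(A)-binding protein (25). Ruvbl1, the gene of Pontin itself, was also among the 7, with 19.3 tags per 10000000 at a peak 477 bp upstream of its start. Ruvbl1 was singled out after its value had been seen. Of 12 genes for substrates of PRMT1, 6 had a peak, led by the RNA-binding proteins Ewsr1 (17.6) and Khdrbs1 (17.1) and the DNA repair nuclease Mre11a (15.7). Of 8 genes for substrates of PRMT5, 5 had a peak, led by the Sm and Sm-like genes Lsm4 (25.8), Snrpb (21.7) and Snrpd1 (16.9). Rps2, the substrate of PRMT3, had a peak of 15.7 tags per 10000000, and Sf3b2, the substrate of PRMT9, had none. Some of these peaks were nearer a TSS of another gene. This was Gm49437 for Kmt2d (553 bp against 856 bp), Ankrd49 for Mre11a (201 bp against 357 bp) and Snora78 for Rps2 (87 bp against 347 bp).

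Of 14 genes of the S-adenosylmethionine cycle, only Slc25a26, its mitochondrial carrier, had a peak, 48 bp from a TSS with 15.9 tags per 10000000. None of 9 genes for the removal of methylarginine and its precursor, and for the breakdown of free methylarginine, had one. By the exact interval this count allows a share of up to 33.6%. The Padi genes of this list lie on chromosome 4 and share the same nearest peak, yet the interval treats them as independent draws. The intervals of both lists include the 17.1% of all protein-coding genes. Of 10 genes for PRMT partners and other arginine methyltransferases, Coprs (12.5) and Clns1a (10.4), both of which encode proteins that direct PRMT5, had a peak, while Prmt5 itself and Wdr77, its obligate partner, had none. The Clns1a peak was nearer a TSS of Rsf1os2 (340 bp) than one of Clns1a (431 bp). Among 9 readers of methylarginine, 3 had a peak, namely the Tudor genes Smndc1 (30.6) and Smn1 (21.4) and the chromatin reader Spin1 (13.2). The intervals of all these small lists were wide, and like that of the PRMT genes they are not a test. Of the 8 lists, those for substrates of CARM1, PRMT1 and PRMT5 were the lists whose interval lay above 17.1%. For none of the 8 did the interval lie above 29.2%, the share for genes with a CpG-rich start. The promoter type of the listed genes was not tallied, so 29.2% need not be the fitting share for each list.

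**Figure D5:**
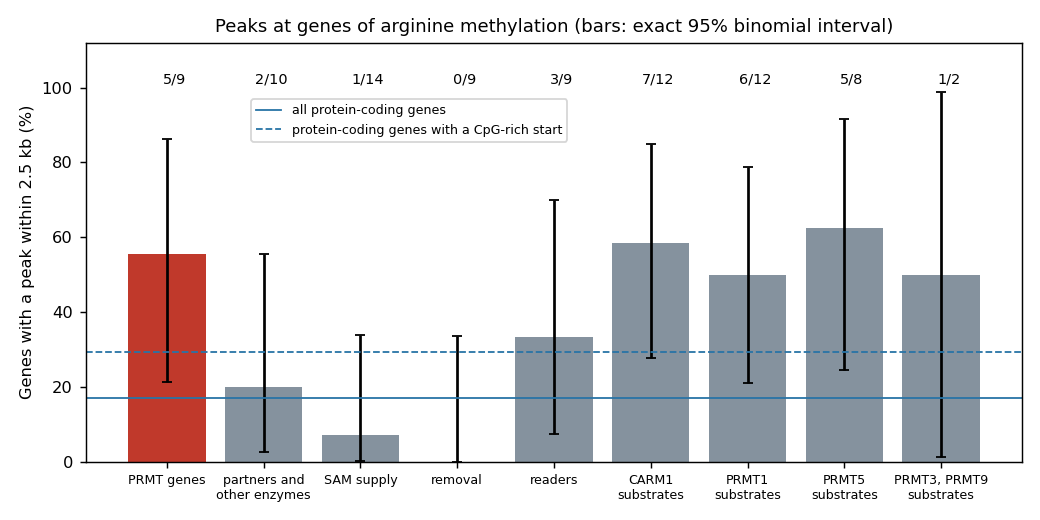
Percentage of genes bound within 2.5 kb of a TSS (bars) for the 9 PRMT genes and the 8 lists of the arginine methylation pathway, with exact 95% binomial intervals and the counts above the bars. The solid line is the share of all protein-coding genes, 17.1%, and the dashed line that of genes with a CpG-rich start, 29.2%. Every interval includes the dashed line. The promoter type of the listed genes was not tallied.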

How the data were processed

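Methylated Pontin ChIP-seq of MEFs was analysed from the peak list of 1 library, the ChIP under glucose starvation, and the labels give its group. Per the study's methods and the submitters' processing notes, reads were aligned to mm10 with Bowtie2 and peaks were called with HOMER 4.7.2 against an input; the methods do not make clear which of the inputs was used. All values are the authors' own. The deposited signal is the tag count of a peak per 10000000 tags. The deposited score ranks peaks. Of the deposited ratios, one is the fold over input and the other compares a peak with its surrounding 10 kb, and each has the authors' p-value. Per the file headers, a peak needed a score of 18, at least 4.00-fold on both ratios, a p-value of at most 1.00e-04 and a false discovery rate of 0.001. A further 4 columns of values were not used.

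Distances ran from the peak centre to any TSS of GENCODE vM21, and sequence came from GRCm38. Tags in the library were computed as the signal times the total, with exact Poisson intervals. Shares have exact binomial intervals, which treat genes as independent draws although all come from 1 library. With 1 library no test between conditions was made, and the Poisson intervals cover counting error only. The PRMT genes, the lists, motifs and limits were chosen with earlier results of these data known. Named genes are the PRMT genes, the genes with a TSS within 2.5 kb of their promoter peaks, and up to 3 genes per list with the highest signal; neighbouring genes mark the location of other peaks. Distance search, intervals and motif search were tested on simulated data. Alternatives were limits of 1 kb and 5 kb, TSSs of coding transcripts, the gene start only, the nearest edge of the peak in place of its centre, a stricter limit of 8-fold over input, and the peaks at or above the median score. The tools were SciPy 1.17.1 and NumPy 2.4.6 in Python 3.11.15, with matplotlib 3.10.9 for plots and pandas 2.3.3 for tables.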

Additional observations from a re-analysis of the deposited data

How the results depend on the processing

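The number of PRMT genes with a promoter peak was 5 with limits of 1 kb and 5 kb, TSSs of coding transcripts, the gene start only and the nearest peak edge. It fell to 2 (Carm1 and Prmt6) with peaks at least 8-fold over input, and to 3 (Carm1, Prmt6 and Prmt9) with the peaks at or above the median score. Fewer peaks enter both by construction, 2412 and 2271, and the count over all protein-coding genes fell as well, to 2178 and 2195. Over the 8 lists, 19 (25%) and 17 (22.4%) of 76 genes kept a peak, against 9.93% and 10% of protein-coding genes. At both limits, the share over all genes lay inside the interval of the PRMT genes. These intervals are too wide to tell whether the difference from all genes changed. By fold over input instead of tags, Prmt6 ranked above 96.2% of peaks. This rank, and the place of Prmt6 among the 2 genes at 8-fold or more, rest on an input under 1 tag. The Carm1 peak was 0.009 kb from a TSS of any transcript, 0.226 kb from that of a coding transcript and 0.255 kb from the gene start. With peaks at least 8-fold over input, the nearest peak moved to 10.9 kb for Prmt1, 281 kb for Prmt2, 31.1 kb for Prmt9 and 502 kb for Prmt7. The peak then nearest to Prmt1, at Bcl2l12, also has an input under 1 tag. No motif match appeared in the whole peak either. No paired analysis was possible because there is 1 library with a peak list. The planned identity between PRMT proteins was not run. A median of 29.5 tags per peak limits the precision, and 1 library gives no spread between cultures.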
